A study of Homo sapiens with 6 samples.

Results

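A list of 52 DNA damage repair genes was followed in PC9 cells made resistant to an EGFR inhibitor. The list was fixed by name and not by a cut on measured values, but it was chosen with earlier results of these data known. Its members were the rows of the deposited results whose gene symbol is on it, 52 of 26485 genes. Resistant cells had been selected with dacomitinib, which binds EGFR and its family members irreversibly, raised from 1 pM to 100 nM over 6 months, and were still in 100 nM dacomitinib when RNA was taken. Parental cells were the untreated starting line. PC9 is a human lung adenocarcinoma line that grows on a mutant, active EGFR, and nothing in the labels says whether the resistant cells are 1 clone. The 3 libraries of resistant cells and 3 of parental cells came from polyadenylated RNA read at the 3′ end (a bulk form of MARS-seq, per the labels' protocols). Resistance and exposure to the drug cannot be told apart in this design.

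Cells keep several repair systems, each for a kind of lesion. Double-strand breaks are sensed by the MRE11-RAD50-NBN complex and the kinases ATM and ATR, which act through the checkpoint kinases CHEK1 and CHEK2. Breaks are then joined directly by the Ku heterodimer and its kinase PRKDC, or copied from a sister chromatid by homologous recombination with BRCA1 and BRCA2, while the Fanconi anaemia proteins unhook crosslinks. Small base lesions are cut out by glycosylases such as UNG and OGG1, bulky and ultraviolet lesions by the XP and ERCC proteins of nucleotide excision repair, and replication mismatches by MutS and MutL complexes. Many of these genes are transcribed most strongly in S phase, so their RNA also follows how many cells are replicating.

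The authors' deposited table gave an adjusted p-value for 51 of the 52 members, and it listed ERCC5, the XPG endonuclease of nucleotide excision repair, at 0. A gene is called here when the adjusted p of the authors' deposited table is under 0.05 (DESeq2's Wald test, two-sided). The header gives no direction for the fold changes. They are taken as resistant over parental from the wording of the design, and all directions below depend on that. As these are bulk samples, fewer cells expressing a gene and less RNA per cell cannot be told apart. By the rule above 7 of 51 members (13.7%) were called in the authors' deposited table, against 28.2% of all tested genes. There were 4 called higher, against a background of 13.3% of all tested genes, and 3 called lower, against 14.8%. Members higher in resistant cells were XPC and ERCC2 of nucleotide excision repair, MSH3 of mismatch repair and UNG of base excision repair, and the lower ones were DDB1 of nucleotide excision repair, the Ku subunit XRCC6 and the checkpoint kinase CHEK2. None of the 12 homologous recombination members or the 5 Fanconi anaemia members was called by DESeq2's Wald test, and at an unadjusted p under 0.05 only RAD54L of these 17 would pass. Over all 51 members 13 had an unadjusted p under 0.05.

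Fold changes of the repair genes were small. In the authors' deposited table the 51 tested members had a median log2 fold change of -0.02, beside 0.02 over all tested genes, with 26 below 0 and 25 above. Among the 34 members with a mean normalized count at or above 50 the median absolute log2 fold change was 0.22, beside 0.27 over all genes above that count, from the authors' deposited table. None of the 34 changed by more than 2-fold in the authors' deposited table, where 8.62% of all genes above that count did. Of these 34 members 7 were called (20.6%), against 41.5% of all genes above that count. In the authors' deposited table these members had a median standard error of 0.17 on the log2 scale, beside 0.15 for all such genes, and it was 0.53 for the 17 tested members with a lower count, none of which was called or had an unadjusted p under 0.05. Of the 44 members not called, 32 had a 95% interval within 2-fold in either direction and 21 had one within 1.5-fold, while 12 had one reaching beyond 2-fold, so that a change of that size cannot be set aside for these 12. The direction split is set out by repair system in the plot of fold changes.

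**Figure D1:**
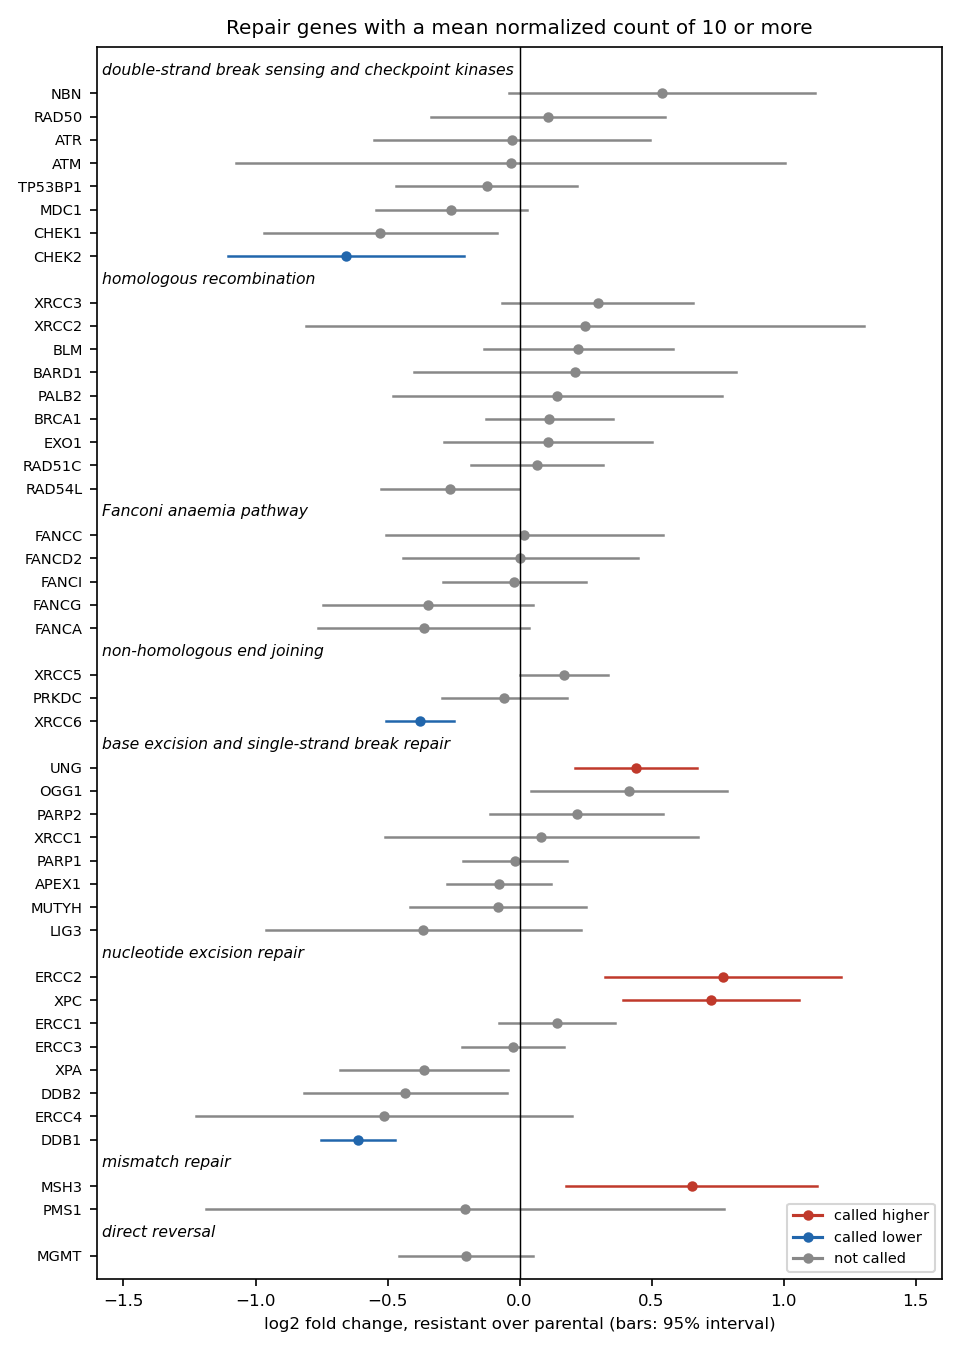
Log2 fold change of each repair gene, resistant over parental, with its 95% interval, grouped by repair system. The 44 members with a mean normalized count at or above 10 are drawn, and the 7 called ones lie between -0.66 (CHEK2) and 0.77 (ERCC2).

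Values per library were worked out for the members from the deposited means. Each mean is a sum of whole reads divided by 6 size factors, and these factors could be read from genes with a single read: 1.37, 1.19 and 1.06 for the libraries on the resistant side, and 1.08, 1.03 and 0.539 for those on the parental side. The parental library of size factor 0.539 was the shallowest. For 48 of the 51 members 1 set of whole reads gave the deposited mean and fold change. XRCC6 had 2 sets within the tolerance of 1e-05 on the log2 fold change, and the one used missed by 2.93e-08, the other by 6.04e-06. MRE11A and BRCA2 were solved from the mean alone. Their reads missed the deposited log2 fold change by 0.19 and 0.0051, beyond that tolerance. The labels' replicate numbers could not be tied to these libraries, which are called A, B and C below in falling order of size factor. No label says that the replicates were grown apart, so their spread, and each p-value with it, may be technical. Values per library were worked out for members only, so the share of all genes whose groups do not overlap is not known. Besides members so described below, XPA, MDC1, RAD51C, FANCA, LIG3, PARP2, ERCC4, BRCA2 and MRE11A had groups that did not overlap, and none of them was called. All 11 epithelial marker genes had reads, whereas PTPRC and CD3E of leukocytes were listed at 0 with 4 other leukocyte markers of 12. The summed fitted level of the 12 leukocyte markers was 368 in resistant cells and 333 in parental cells, with 5 tested and 1 called lower. Of 8 endothelial markers 5 were at 0, and the sum was 135 in resistant cells and 277 in parental cells, with CDH5 and ESAM called lower. Of 12 fibroblast markers 6 (COL1A2, DCN, LUM, PDGFRA, THY1 and POSTN) were at 0. The summed fitted level of the 12 fibroblast markers was 821 in resistant cells and 483 in parental cells, with PDGFRB, C1S and COL1A1 called higher and FBLN1 called lower. PDGFRB had a fitted level of 651 in resistant cells and 2.27 in parental cells, and FBLN1 had 92.6 in resistant cells and 471 in parental cells. The part of these markers in the values of the repair genes was not tested.

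Nucleotide excision repair held the most calls, 2 higher and 1 lower among 8 tested members. Over all tested genes 28.2% were called, and 41.5% of those with a mean normalized count at or above 50. With so few genes the count is not read as particular to this system. The same shares are the background for each repair system below. XPC, the protein that first recognises helix-distorting lesions, had 237, 232 and 153 reads in resistant libraries A, B and C, against 111, 105 and 58 reads in parental libraries A, B and C. Divided by the size factors, this is 173, 195 and 144 normalized counts in resistant cells (171 ± 25.8, SD, n = 3) and 102, 102 and 108 in parental cells (104 ± 3.26, SD, n = 3). Every resistant library lay above every parental one. The authors' deposited table gave XPC a log2 fold change of 0.72 ± 0.17 (SE), with an adjusted p of 0.000159.

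ERCC2, the XPD helicase of the TFIIH complex that opens DNA around the lesion, had 91.8, 95.1 and 92.1 normalized counts in resistant libraries and 67.3, 55.1 and 35.2 in parental libraries. The groups did not overlap, and the parental libraries spread more (93.0 ± 1.80 in resistant and 52.6 ± 16.2 in parental cells, SD, n = 3 each). Its log2 fold change was 0.77 ± 0.23 (SE) in the authors' deposited table, with an adjusted p of 0.00387. Leaving out parental library C, with 19 reads for ERCC2, gave 0.60 with an unadjusted p of 0.0144, just past the highest unadjusted p that passes in the authors' deposited table, 0.0141. ERCC2 overlaps KLC3 on the opposite strand, and the authors' deposited table gave KLC3 itself a log2 fold change of 1.34 ± 0.24 (SE) with an adjusted p of 1.75e-07. The sources used here do not say whether strand was used in counting, so reads of the pair may not be separated, and the part of KLC3 in the ERCC2 value was not tested. The other TFIIH helicase, ERCC3 or XPB, had 429, 457 and 444 normalized counts in resistant libraries and 464, 461 and 421 in parental libraries. Its log2 fold change in the authors' deposited table was -0.03 ± 0.10 (SE), not called.

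DDB1 is the large subunit of the UV-DDB damage sensor and an adaptor of CUL4 ubiquitin ligases. Its normalized counts were 974, 979 and 977 in resistant libraries and 1548, 1482 and 1441 in parental libraries. The gap between the groups was many times the spread within either (976 ± 2.41 in resistant and 1490 ± 54.0 in parental cells, SD, n = 3 each). The authors' deposited table gave DDB1 the lowest adjusted p of the list, 2.0e-16, with a log2 fold change of -0.61 ± 0.07 (SE). DDB2, the lesion-binding partner of DDB1, had 88.9, 72.4 and 87.4 normalized counts in resistant libraries and 103, 98.7 and 141 in parental libraries. The DDB2 groups did not overlap, but its log2 fold change of -0.43 ± 0.20 (SE) in the authors' deposited table missed the threshold with an adjusted p of 0.0861. XPA, the scaffold that verifies damage, also missed it in the authors' deposited table, at -0.36 ± 0.16 (SE, adjusted p 0.0820), with 109 to 124 normalized counts in resistant libraries and 136 to 167 in parental libraries. The incision pair ERCC1 and ERCC4 was not called, at log2 fold changes of 0.14 and -0.51 in the authors' deposited table. ERCC5 overlaps BIVM and the read-through gene BIVM-ERCC5 on the same strand, and the authors' deposited table listed BIVM-ERCC5 at 0 too and BIVM at a mean normalized count of 44.3. How reads shared by overlapping genes were counted was not examined here, so the 0 of ERCC5 cannot be read as absence of its RNA.

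Base excision repair had 1 call among 8 members. UNG, the glycosylase that removes uracil from DNA, had 319, 317 and 315 normalized counts in resistant libraries and 243, 225 and 232 in parental libraries. The groups were well apart (317 ± 2.19 in resistant and 234 ± 9.14 in parental cells, SD, n = 3 each), and the log2 fold change in the authors' deposited table was 0.44 ± 0.12 (SE, adjusted p 0.00114). OGG1, which removes oxidised guanine, had 113 to 127 normalized counts in resistant libraries and 66.8 to 103 in parental libraries. The OGG1 groups did not overlap, and its log2 fold change of 0.42 ± 0.19 (SE) in the authors' deposited table was not called, with an adjusted p of 0.0886. MUTYH, which removes adenine paired with oxidised guanine, and APEX1, the endonuclease that cuts the abasic site, both had a log2 fold change of -0.08 in the authors' deposited table. PARP1, the break sensor inhibited by PARP inhibitor drugs, had 408, 428 and 415 normalized counts in resistant libraries and 416, 401 and 456 in parental libraries. Its log2 fold change of -0.02 in the authors' deposited table had a 95% interval from -0.21 to 0.18, and its relative PARP2 was at 0.22 with an interval from -0.11 to 0.54. The ligase-scaffold pair LIG3 and XRCC1 stood at -0.36 and 0.08 in the authors' deposited table, neither called.

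Among 3 mismatch repair members MSH3 was called. MSH3, a subunit of the MutSβ complex that binds larger insertion and deletion loops, had 71.4, 63.1 and 80.8 normalized counts in resistant libraries and 45.2, 49.3 and 40.8 in parental libraries. All resistant libraries lay above all parental ones. The authors' deposited table gave MSH3 a log2 fold change of 0.65 ± 0.24 (SE) and an adjusted p of 0.0280. This call stood close to the threshold: leaving out 1 library at a time kept the log2 fold change between 0.56 and 0.74, but 4 of the 6 refits did not reach the unadjusted p of 0.0141 (resistant A, resistant C, parental A or parental C left out), the highest p being 0.0344. The MutL genes were sparse: the authors' deposited table gave PMS1 a mean normalized count of 14.4 and PMS2 one of 6.57, with 95% intervals that reached beyond 2-fold. PMS2 has pseudogenes, of which PMS2P1 had a mean normalized count of 61.9 in the authors' deposited table, so the reads of PMS2 are uncertain. MGMT, which takes alkyl groups off guanine, had 211, 214 and 192 normalized counts in resistant libraries and 238, 225 and 250.4 in parental libraries. The MGMT groups did not overlap, and its log2 fold change of -0.20 ± 0.13 (SE) in the authors' deposited table was not called.

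The Ku heterodimer, which binds broken ends first in non-homologous end joining, had 1 of its 2 subunits called. XRCC6, or Ku70, the most abundant member in these 3′-end counts, had 2109, 2246 and 2273 normalized counts in resistant libraries and 3008, 2797 and 2784 in parental libraries (2209 ± 88.0 in resistant and 2863 ± 126 in parental cells, SD, n = 3 each). Its log2 fold change in the authors' deposited table was -0.38 ± 0.07 (SE, adjusted p 1.15e-07). XRCC5, or Ku80, had 864, 794 and 925 normalized counts in resistant libraries and 786, 744 and 768 in parental libraries. XRCC5 was not called, at 0.17 ± 0.09 (SE, adjusted p 0.137) in the authors' deposited table, although its groups did not overlap. Within each library the ratio of XRCC6 to XRCC5 reads was 2.44, 2.83 and 2.46 in resistant cells and 3.83, 3.76 and 3.63 in parental cells, a ratio that does not depend on the size factors. It averaged 2.58 ± 0.22 in resistant and 3.74 ± 0.10 in parental cells (SD, n = 3 each), with an exact two-sided permutation p of 0.10, the smallest that 3 libraries against 3 can give, and 0.35 after adjustment over the 7 partner pairs examined. The other pair without overlap was ERCC1 over ERCC4, at 20.5 ± 3.57 in resistant and 13.3 ± 2.38 in parental cells (SD, n = 3 each, exact permutation p also 0.10, and 0.35 after the same adjustment). The pairs DDB1 and DDB2, BRCA1 and BARD1, FANCI and FANCD2, RAD50 and NBN, and LIG3 and XRCC1 had overlapping ratios. PRKDC, the kinase that Ku recruits, had 251 to 255 normalized counts in resistant libraries and 243 to 278 in parental libraries, with a log2 fold change of -0.06 ± 0.12 (SE) in the authors' deposited table. Of the ligation partners, XRCC4 had 5 reads in all resistant libraries and 3 in all parental ones, and LIG4 had a mean normalized count of 5.80 in the authors' deposited table. XRCC6 has several processed pseudogenes in the annotation, and the only one of them listed in the authors' deposited table, XRCC6P5, was at 0.

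Of the 9 genes that sense breaks and relay the checkpoint signal only CHEK2 was called. CHEK2, the checkpoint kinase downstream of ATM, had 61.2, 64.8 and 38.5 normalized counts in resistant libraries and 88.5, 87.1 and 85.3 in parental libraries. The parental libraries lay close together and resistant library C stood lowest. The log2 fold change in the authors' deposited table was -0.66 ± 0.23 (SE, adjusted p 0.0173). Without resistant library C it was -0.47 with an unadjusted Wald p of 0.0618, so the CHEK2 call did not hold in that refit. The refit kept the dispersion, the fitted spread between libraries, from all 6 libraries. CHEK1, the kinase downstream of ATR, had 52.5, 49.6 and 55.5 normalized counts in resistant libraries and 71.9, 83.2 and 70.5 in parental libraries. The CHEK1 groups did not overlap and its log2 fold change of -0.53 ± 0.23 (SE) in the authors' deposited table had an adjusted p of 0.0660, above the threshold. The upstream kinases ATM and ATR both had a log2 fold change of -0.03 in the authors' deposited table, and 95% intervals from -1.07 to 1.01 and from -0.55 to 0.49. NBN had 38.5 to 59.8 normalized counts in resistant libraries and 28.6 to 47.4 in parental libraries, with a log2 fold change of 0.54 ± 0.30 (SE) in the authors' deposited table, and the groups overlapped. TP53BP1 and MDC1, which hold repair factors at breaks, and the complex subunit RAD50 stood at -0.12, -0.26 and 0.11 in the authors' deposited table. MRE11A had 8 reads in resistant and 1 read in parental libraries, a ratio of 5.87 with an exact counting interval from 0.786 to 260.3. CHEK2 overlaps HSCB on the opposite strand, and HSCB was not called, at -0.43 ± 0.20 (SE, adjusted p 0.0961) in the authors' deposited table.

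None of the 12 homologous recombination members was called, with log2 fold changes from -0.26 for RAD54L upward in the authors' deposited table. BRCA1, the most abundant of them, had 265, 256 and 265 normalized counts in resistant libraries and 259, 224 and 243 in parental libraries. The BRCA1 groups overlapped, and its log2 fold change of 0.11 in the authors' deposited table had a 95% interval from -0.13 to 0.35. RAD51C, a recombination mediator, was at 0.07 with an interval from -0.18 to 0.32 in the authors' deposited table. BRCA2, a mediator of strand exchange, had 5, 7 and 4 reads in resistant libraries and 0, 1 and 1 in parental libraries. That is a ratio of 5.87 with an exact interval from 1.38 to 52.6 that covers counting error only, and the adjusted p of 0.163 in the authors' deposited table missed the threshold. RAD54L, a motor protein of strand exchange, had 192, 183 and 202 normalized counts in resistant libraries and 231, 212 and 254 in parental libraries. It was not called, with an adjusted p of 0.140 in the authors' deposited table, although its groups did not overlap. The helicases BLM and WRN, the nuclease EXO1, the recombination mediators XRCC2 and XRCC3, and PALB2, BARD1 and RAD52 had overlapping groups. The Fanconi anaemia members FANCA, FANCC, FANCD2, FANCG and FANCI lay between -0.36 and 0.02 in the authors' deposited table, the central FANCI and FANCD2 pair at -0.02 and 0.00.

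**Figure D2:**
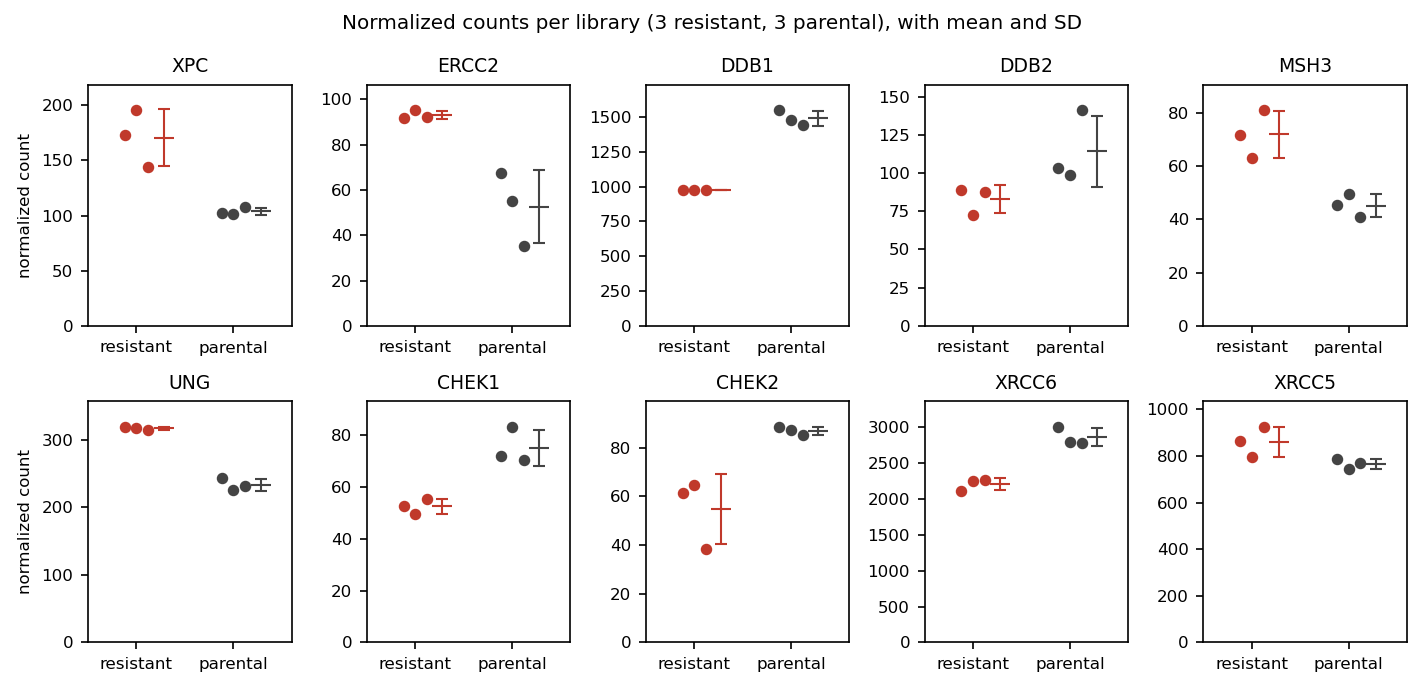
Normalized counts of 10 repair genes in each library, resistant on the left and parental on the right, each point a library and each bar the mean with its SD (n = 3). DDB1 averages 976 in resistant and 1490 in parental cells. In each of the 10 genes shown, which were picked for display, the points of the groups do not overlap. The share of all genes without overlap is not known.

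The promoters of the 3 called members with the largest falls and of XPC and ERCC2, which had the largest rises among called members, are given because they are the sequences next to the called changes. Each is 300 bases from RefSeq (GRCh38.p14), from 250 bases before to 50 after the start, read 5′ to 3′ on the gene's strand, with motif matches in capitals. The motifs searched on both strands were the E2F sites TTTGGCGC, TTTCCCGC, TTTGCCGC and TTTCGCGC, the cell cycle homology region TTTGAA and the CCAAT box CCAAT.
CHEK2, chr22:28741771-28742070, strand minus: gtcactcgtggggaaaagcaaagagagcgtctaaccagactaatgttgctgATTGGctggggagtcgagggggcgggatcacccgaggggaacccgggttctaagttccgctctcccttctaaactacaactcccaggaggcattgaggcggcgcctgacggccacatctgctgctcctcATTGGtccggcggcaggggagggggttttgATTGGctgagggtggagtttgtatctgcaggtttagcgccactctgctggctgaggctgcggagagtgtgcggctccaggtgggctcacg
XRCC6, chr22:41621045-41621344, strand plus: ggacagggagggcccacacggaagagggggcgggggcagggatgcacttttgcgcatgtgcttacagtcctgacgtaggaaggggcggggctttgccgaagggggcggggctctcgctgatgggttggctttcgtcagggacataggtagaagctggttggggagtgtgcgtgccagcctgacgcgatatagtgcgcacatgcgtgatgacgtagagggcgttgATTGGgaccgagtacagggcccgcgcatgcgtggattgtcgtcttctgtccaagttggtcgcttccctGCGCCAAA
DDB1, chr11:61333056-61333355, strand minus: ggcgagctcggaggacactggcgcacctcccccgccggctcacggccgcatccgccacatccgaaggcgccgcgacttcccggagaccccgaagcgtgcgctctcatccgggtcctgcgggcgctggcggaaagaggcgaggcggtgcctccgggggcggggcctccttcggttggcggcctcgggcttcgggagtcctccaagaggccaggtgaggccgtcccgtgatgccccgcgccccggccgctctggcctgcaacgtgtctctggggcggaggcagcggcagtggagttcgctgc
XPC, chr3:14178552-14178851, strand minus: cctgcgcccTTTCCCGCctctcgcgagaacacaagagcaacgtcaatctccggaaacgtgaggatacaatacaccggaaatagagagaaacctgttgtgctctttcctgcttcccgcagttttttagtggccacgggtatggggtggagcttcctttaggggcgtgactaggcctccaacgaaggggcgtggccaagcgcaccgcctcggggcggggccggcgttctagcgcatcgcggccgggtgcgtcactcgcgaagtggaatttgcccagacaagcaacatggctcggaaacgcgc
ERCC2, chr19:45370524-45370823, strand minus: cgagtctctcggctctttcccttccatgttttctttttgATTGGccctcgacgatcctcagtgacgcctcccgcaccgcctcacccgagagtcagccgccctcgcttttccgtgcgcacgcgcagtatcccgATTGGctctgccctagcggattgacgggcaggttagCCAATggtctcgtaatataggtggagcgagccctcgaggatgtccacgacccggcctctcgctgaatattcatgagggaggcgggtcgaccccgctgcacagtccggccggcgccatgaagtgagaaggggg
Capitals mark CCAAT boxes in CHEK2 (3, all read as ATTGG), an E2F site and a CCAAT box in XRCC6, an E2F site in XPC and 3 CCAAT boxes in ERCC2, whereas the DDB1 window held none of the motifs. Called members with an E2F match were thus found in both directions. Promoters were found for 47 of the 52 members, and 9 of them (19.1%) held an E2F match, beside 3.33% of all 27305 promoters of this length. A CCAAT box stood in 22 of the 47 (46.8%), beside 35.7% of all, and the cell cycle homology region in 4 (8.51%), beside 15.4%. These matches describe the letters and do not show binding.

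The lower calls lay in chromosome stretches whose other genes were also mostly lower. For each member the median log2 fold change in the authors' deposited table was taken over up to 40 neighbours on its chromosome with a mean normalized count at or above 50, placed by GENCODE 29 (GRCh38). Around XRCC6 (chr22:41621119-41664048) the median of 40 neighbours was -0.42, with 34 of them below 0. Around CHEK2 (chr22:28687743-28742422) it was -0.44, with 33 of 40 below 0, and around DDB1 (chr11:61299451-61342596) it was -0.42, with 35 of 40 below 0. The lowest neighbourhood was that of CHEK1 (chr11:125625136-125676255), at -0.80 with 34 of 36 genes below 0. DESI1, whose start lies 23 bases from that of XRCC6 on the opposite strand, was called lower as well, at -0.47 ± 0.10 (SE, adjusted p 4.05e-05) in the authors' deposited table.

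Altogether 8 tested members had a neighbour median below -0.3, namely ATM, ATR, CHEK1, CHEK2, XRCC6, DDB1, DDB2 and ERCC3. All 8 had a fold change below 0 in the authors' deposited table, and all 3 lower calls were among them. However, ATM, ATR and ERCC3 each stood at -0.03, with standard errors of 0.53, 0.27 and 0.10. The interval of ERCC3, from -0.22 to 0.17, left out its neighbour median of -0.34. The intervals of ATM (-1.07 to 1.01) and ATR (-0.55 to 0.49) held both 0 and their neighbour medians, -0.34 and -0.39. Whether ATM and ATR stayed near 0 or fell with their neighbours therefore cannot be told. MRE11A, just outside the limit with a neighbour median of -0.29, was at 2.38 ± 1.74 (SE). Of the other 43 members 18 were below 0, 4 were called higher and none was called lower, a split that was seen in the data and not tested. Over all placed genes 9.98% had a neighbour median below -0.3, and 41.9% of those were called lower, beside 12.1% of the rest. What sets these stretches apart was not tested.

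When each gene's fold change was set against its neighbours and tested again with the authors' standard error over all placed genes, 6 members were called, against 26.2% of all genes. This test gives the neighbour median no error of its own, so its p-values may be too low. XRCC6 stood at 0.039 (adjusted p 0.745), with its sign turned, and CHEK2 at -0.22 (adjusted p 0.571). DDB1 kept its direction at -0.19, with an adjusted p of 0.0301, but with 10 neighbours on each side in place of 20 it stood at -0.14 and was not called (adjusted p 0.158). Of the genes called higher XPC (0.56, adjusted p 0.00537), ERCC2 (0.67, 0.0147) and MSH3 (0.75, 0.0103) stayed called, and UNG did not (0.21, 0.209), its neighbours having a median of 0.23. ERCC3 and FANCG, neither of them called before, were called relative to their neighbours, at 0.32 (adjusted p 0.00673) and -0.54 (adjusted p 0.0299). With 10 neighbours on each side FANCG was called again, at -0.58 (adjusted p 0.0178), and ERCC3 was not, at 0.23 (adjusted p 0.0675). XPA and APEX1, not called with 20, were called lower with 10, at -0.55 (adjusted p 0.00436) and -0.28 (adjusted p 0.0199), so the calls made relative to neighbours depended on how many were used. CHEK1 stood at 0.27 relative to its neighbours, also a change of sign, and was not called.

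**Figure D3:**
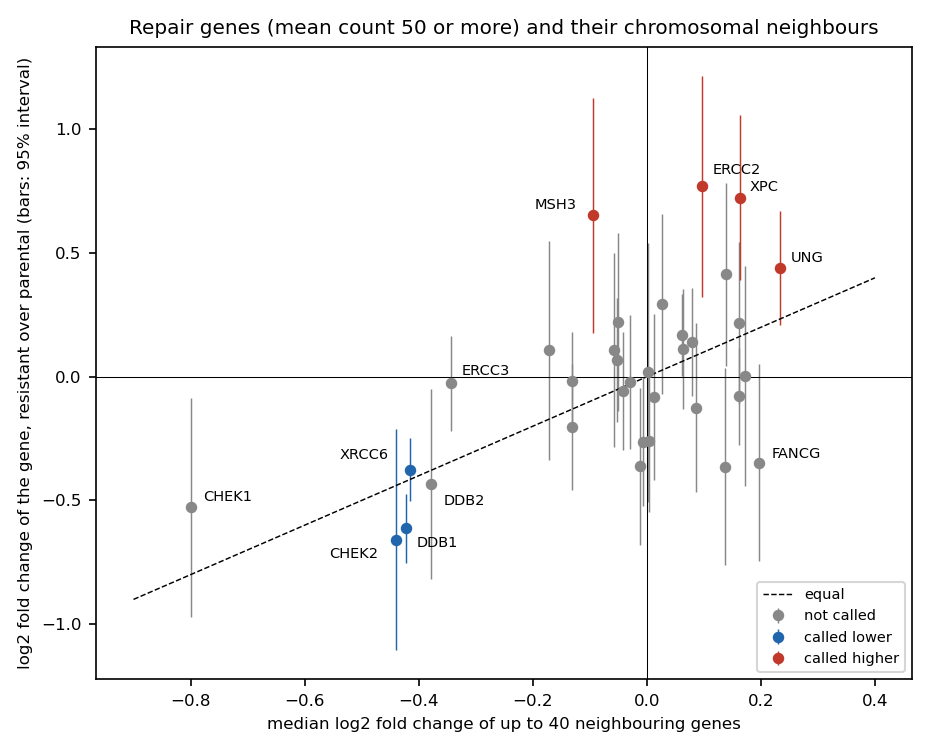
Log2 fold change of each repair gene with a mean normalized count at or above 50, resistant over parental, with its 95% interval, against the median log2 fold change of its neighbours on the chromosome. XRCC6, CHEK2 and DDB1 sit with CHEK1, DDB2 and ERCC3 left of -0.3, and XPC, ERCC2, MSH3 and UNG lie above the line of equal values.

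Further repair genes outside the list are given for comparison. The authors' deposited table held 131 tested genes of 138 further repair genes, of which 5 were called higher, 16 lower and 110 not called (16.0% called, beside 28.2% of all tested genes). The share called lower was 12.2%, near the 14.8% over all tested genes, and the median log2 fold change was -0.07. Relative to 20 neighbours on each side 8 of these genes were called higher and 9 lower. Values relative to neighbours are not given for the single genes named below. The part of their chromosome stretches in those calls is therefore not shown. Lower calls included partners of members that were themselves lower or not called: RBX1, the RING subunit that works with DDB1 in CUL4 ligases, was given a log2 fold change of -0.63 ± 0.11 (SE) by the authors' deposited table, with an adjusted p of 4.85e-08. The TFIIH subunits GTF2H1 and CDK7 were called lower in the authors' deposited table, at -0.80 and -0.55, while CCNH, the cyclin of CDK7, was called higher at 0.32. In base excision repair the flap nuclease FEN1, the nucleotide pool enzyme NUDT1 and the glycosylase NTHL1 were called lower, at -0.62, -0.57 and -0.49 in the authors' deposited table. That is 15.8% of the 19 tested, beside 14.8% of all tested genes. None of the 19 was called higher, beside 13.3% of all tested genes. The end-joining polymerase POLM was called lower at -0.78 and C9orf142, the end-joining factor PAXX, higher at 0.36 in the authors' deposited table. For recombination and the Fanconi anaemia pathway 1 of 38 tested genes was called higher, BABAM1 at 0.24, and 3 lower in the authors' deposited table, among them UIMC1 at -0.68, both from the BRCA1-A complex. Checkpoint signalling had CDC25B, a phosphatase that activates mitotic kinases, as its largest lower call at -0.67, and TELO2 as its only higher one at 0.39, in the authors' deposited table. Demethylases of alkylated DNA ALKBH2 and ALKBH3 were called lower at -0.87 and -0.47, and MAD2L2 of translesion synthesis higher at 0.57, in the authors' deposited table. Of 11 further mismatch repair genes only POLD1 was called in the authors' deposited table, lower at -0.41.

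Of 36 S-phase genes the authors' deposited table had 12 called lower (33.3%, beside 14.8% over all tested genes), 1 called higher and 23 not called. Their median log2 fold change was -0.19, and the largest falls were E2F8 at -1.82, RRM2 at -1.21 and GINS4 at -0.82. Of 30 mitotic genes the authors' deposited table had 11 called lower (36.7%), 1 called higher and 18 not called. The median over these was -0.23, and CENPA, CCNB1 and BUB1 led the falls. Among 22 tested p53 target genes the authors' deposited table had 5 called higher and 3 called lower. That is 36.4% called, beside 28.2% over all tested genes and 41.5% over those with a mean normalized count at or above 50. CDKN1A, which blocks cyclin-dependent kinases, was at 2.52 ± 0.20 (SE), GADD45A at 2.33 ± 0.08 (SE) and BBC3 at 1.65 ± 0.21 (SE), while SESN1, PHLDA3 and TNFRSF10B were called lower, so the list did not move one way. The part of these cell cycle differences in the values of the repair genes was not tested.

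**Figure D4:**
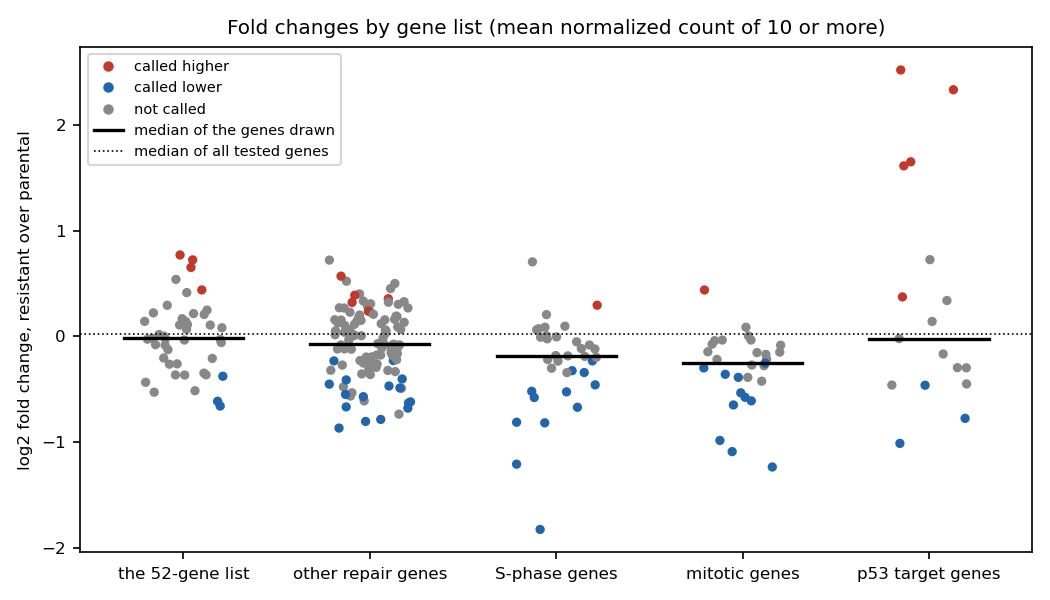
Log2 fold change, resistant over parental, of the 52-gene list, other repair genes, S-phase, mitotic and p53 target genes with a mean normalized count at or above 10, each point a gene and each bar the median of the points. The repair genes lie within 1 log2 unit of 0, and CDKN1A and GADD45A stand above 2.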

How the data were processed

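The members and the gene lists were chosen with earlier results of these data known. Polyadenylated RNA of 3 resistant and 3 parental samples was sequenced. The tools named in the submitters' processing notes are STAR, HTSeq, cutadapt and DESeq2, and the build is GRCh38 (hg38), with no versions given in the sources used here. The authors deposited 1 table of their comparison. Its mean normalized count is, per the file headers, a signal over all libraries. The deposited log2 fold change comes with its standard error, and the deposited Wald statistic is a score equal to their quotient. Each deposited p-value comes with a Benjamini-Hochberg adjusted p-value for 13494 of 15867 genes with reads, and recomputing the adjustment gave the deposited values within 1.6e-15.

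A count test across the samples was planned for the case of counts per sample; the authors' Wald test was used instead. Size factors came from genes with 1 read (Python 3.11.15, numpy 2.4.6, scipy 1.17.1). Whole reads were then searched that gave the deposited mean to the precision of the file and, in a negative binomial fit at the dispersion that the standard error implies, the deposited fold change. Among members solved from both mean and fold change the largest miss was 4.5e-06, and the next set missed by at least 206 times more. For XRCC6, with the most sets, the next missed by 6e-06. In a test on data simulated for 45 members, all 45 were solved rightly. The 2 most abundant members, XRCC6 and DDB1, were not simulated, nor were the sparse members MRE11A, BRCA2, RAD52 and XRCC4. Their reads were thus not checked in this way. Depth is limited by the reads, with normalized counts summing to 3.97e+06 per library. Fold intervals are 95% normal intervals from the standard errors. Some overlapping genes and 1 promoter are not reported here. Called members are all named, and of other lists up to 3 per direction with the largest change and a mean count of at least 20. Alternatives covered the adjustment, centring, thresholds, coverage, neighbours and leaving out each library.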

Additional observations from a re-analysis of the deposited data

How the results depend on the processing

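The count of 7 called members stayed between 5 and 8 under adjustment over every gene with a p, centring on well-covered genes, an adjusted p under 0.01, only genes with a mean count of 50 or more, a fold of at least 1.5 and centring on 20 neighbours, and was 11 at an adjusted p under 0.1. Over all genes the share called ran from 17.4% (a fold of at least 1.5) to 44.1% (a mean count of 50 or more). It was 32.4% at an adjusted p under 0.1. The 8 calls at a mean count of 50 or more included CHEK1 (Wald test, adjusted p 0.0452). With 1 library left out at a time, an alternative chosen after seeing the data, the count of members ran from 5 to 7. Further repair genes had 21 calls among 131 tested, beside 28.2% of all genes. Of these 7 were past a 1.5-fold change, all lower, beside 17.4% of all genes. With 10 neighbours on each side, also chosen after seeing the data, 13 of 130 were called, beside 26.4%. XRCC6 was at 0.039 and CHEK1 at 0.27 relative to 20 neighbours, and CHEK1 was at 0.43 relative to 10, all with the sign turned, whereas XRCC6 was at -0.04 relative to 10. DDB1, at -0.14 relative to 10 neighbours, was then not called (adjusted p 0.158). XPA was called relative to 10 neighbours, at -0.55. The cause was not tested. No paired analysis was possible because the libraries could not be tied to replicate numbers. The median fold change of the members was 0.01 after centring and -0.02 over members with a mean count of 50 or more.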

Other observations

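Several members share a start region with a gene on the opposite strand, and the authors' deposited table held called values for such partners of sparse members. ERC1, whose start lies 456 bases from that of RAD52, had a log2 fold change of 1.10 ± 0.16 (SE, adjusted p 3.17e-10) in the authors' deposited table, while RAD52 had 10 reads in all resistant and 5 in all parental libraries. TMEM167A, which overlaps the start of XRCC4, was called lower at -1.04 ± 0.30 (SE, adjusted p 0.00356) in the authors' deposited table, and AIMP2, with its start 120 bases from that of PMS2, at -0.48 ± 0.09 (SE, adjusted p 1.90e-07). RAD52, XRCC4 and PMS2 were not called, and their reads were too few to set against these values. LSM3, the start partner of XPC, was not called in the authors' deposited table, at 0.19 ± 0.16 (SE).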
